A study of Mus musculus with 12 samples.

Results

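H3K9me3 peaks at transcription starts were followed in mouse liver across 6 peak lists, 1 for each combination of genotype (control or Alb-D2KO) and age (postnatal day 1, P1, postnatal day 5, P5, and adult). A peak was included when it lay on an autosome and its deposited annotation placed it in the transcription start site (TSS) class. There were 58665 such peaks among the 1509802 autosomal peaks of the 6 lists together. The labels give the strain as C57BL/6 and the methods of the study as C57BL/6J. In Alb-D2KO mice the type 2 deiodinase gene Dio2, whose enzyme makes the active thyroid hormone T3 from its precursor, had been inactivated by a Cre recombinase under the albumin promoter, which is active in hepatocytes, so that the other cells of the liver keep the gene. The controls expressed the same Cre. The labels describe a pool of 3 livers for the chromatin of P1 and P5 and a single liver for the adult. The methods mention more than 1 such pool per genotype at P1, several adult livers and repeated sequencing, and do not state which of these were merged into a list, so a list may hold more than 1 sample. Each H3K9me3 library had been called over its own input library, and the study asked whether loss of hepatic Dio2 around birth leaves a trace in chromatin. With 1 list per group there were no replicates, so no value below could be set against a spread between animals, and no p-value between groups was computed. The lists hold no read counts, so the depth of the libraries is unknown.

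H3K9me3, trimethylation of lysine 9 on histone H3, marks closed chromatin, is read by HP1 proteins and is written by enzymes that include SETDB1. This enzyme is brought to DNA by KAP1 and the large family of KRAB zinc finger proteins, which bind transposable elements and also the zinc finger gene clusters themselves. Broad domains of the mark cover clusters of sensory receptor genes in most tissues outside the sensory epithelia, while starts inside CpG islands, stretches dense in CpG dinucleotides, are usually free of it. In liver the mark has been described at genes of other lineages and at genes that are expressed only at another age.

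The windows around 5 starts are printed here to show what starts poor and rich in CpG look like. They do not stand for their sets: both adult examples are CpG-rich, while of the coding genes of the adult set 32.1% were CpG-rich and 51.9% CpG-poor by the limits given below. Each window runs from 250 bases before to 50 bases after the gene start of the GENCODE annotation, was read 5′ to 3′ on the gene's strand from the RefSeq GRCm38.p6 genome, and has its CpG dinucleotides in capitals. Zfp981, a zinc finger gene of the chromosome 4 cluster, had a TSS-class peak in all 6 lists. Mup1, a major urinary protein gene, and Cyp2c67, a cytochrome P450 gene, had one in the 4 neonatal lists only. The zinc finger genes Zfp780b and Zfp763 had one in the 2 adult lists only.
Zfp981, chr4:146501777-146502076, plus strand: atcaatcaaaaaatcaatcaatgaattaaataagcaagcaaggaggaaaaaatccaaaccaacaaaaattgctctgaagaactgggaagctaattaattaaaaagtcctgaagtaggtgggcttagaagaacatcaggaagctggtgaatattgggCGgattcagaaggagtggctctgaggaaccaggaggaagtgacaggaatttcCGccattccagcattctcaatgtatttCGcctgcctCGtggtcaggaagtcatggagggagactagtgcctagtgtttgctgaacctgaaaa
Mup1, chr4:60501911-60502210, minus strand: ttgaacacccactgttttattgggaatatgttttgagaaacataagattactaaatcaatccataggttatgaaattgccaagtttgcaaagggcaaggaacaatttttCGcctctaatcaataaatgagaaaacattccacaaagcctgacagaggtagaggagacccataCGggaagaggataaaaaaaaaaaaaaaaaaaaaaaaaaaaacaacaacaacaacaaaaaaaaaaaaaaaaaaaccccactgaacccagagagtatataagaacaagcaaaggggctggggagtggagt
Cyp2c67, chr19:39649002-39649301, minus strand: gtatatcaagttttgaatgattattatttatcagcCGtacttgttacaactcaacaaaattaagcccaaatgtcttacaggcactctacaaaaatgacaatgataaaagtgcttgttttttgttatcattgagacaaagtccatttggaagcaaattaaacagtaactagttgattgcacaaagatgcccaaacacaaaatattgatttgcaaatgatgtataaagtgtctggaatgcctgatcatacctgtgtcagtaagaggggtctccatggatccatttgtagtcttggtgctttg
Zfp780b, chr7:27979122-27979421, minus strand: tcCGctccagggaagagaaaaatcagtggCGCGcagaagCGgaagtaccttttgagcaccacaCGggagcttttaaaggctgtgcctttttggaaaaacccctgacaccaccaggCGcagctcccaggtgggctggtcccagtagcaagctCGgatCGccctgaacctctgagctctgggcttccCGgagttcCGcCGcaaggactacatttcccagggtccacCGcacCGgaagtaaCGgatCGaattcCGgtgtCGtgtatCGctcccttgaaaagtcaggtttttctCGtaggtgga
Zfp763, chr17:33033353-33033652, minus strand: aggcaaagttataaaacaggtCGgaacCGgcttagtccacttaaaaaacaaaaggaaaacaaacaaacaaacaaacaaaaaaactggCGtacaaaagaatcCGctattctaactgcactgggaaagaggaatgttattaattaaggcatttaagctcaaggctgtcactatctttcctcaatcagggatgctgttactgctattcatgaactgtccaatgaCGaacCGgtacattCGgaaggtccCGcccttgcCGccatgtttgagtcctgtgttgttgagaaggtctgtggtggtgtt
The windows held 4 CpG in Zfp981, 2 in Mup1, 1 in Cyp2c67, 19 in Zfp780b and 9 in Zfp763. The ratio of observed to expected CpG was 0.31 in Zfp981 and 0.79 in Zfp780b.

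TSS-class peaks made up a small share of each list. Control P1 held 9641 of 247677 autosomal peaks, or 3.89% (95% Wilson interval 3.82 to 3.97, which covers counting error only). Alb-D2KO P1 held 9607, or 4.08% (4.01 to 4.17), control P5 9889, or 4.13% (4.05 to 4.21), and Alb-D2KO P5 10030, or 4.16% (4.08 to 4.24). Control adult held 9835 and Alb-D2KO adult 9663, both 3.57%. The class spans peaks whose nearest edge lay between 999 bases upstream and 99 bases downstream of a transcript start, and peaks across the start itself. Peaks across the start made up 55.6% of the class in control P1, 56.9% in Alb-D2KO P1, 55.0% in control P5 and 55.2% in Alb-D2KO P5, against 47.7% and 47.9% in the adult lists. The rest lay upstream, apart from 267 to 378 peaks per list that lay just downstream.

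Peaks at starts were wider than the other peaks of their list. Their median width was 1930, 2068, 1985 and 2038 bases in the neonatal lists (control P1, Alb-D2KO P1, control P5 and Alb-D2KO P5, the order used below), and 1234 and 1255 bases in the adult lists (control, then Alb-D2KO). Other peaks had medians from 798 to 1032 bases. Peaks of 20 kb or more numbered 460, 498, 454 and 451 in the neonatal lists, between 4.50% and 5.18% of the class, and 275 and 296 in the adult lists, 2.80% and 3.06%. Among the other peaks that share was between 0.0907% and 0.237%. A wider peak has more chance to reach a start, so width and class are not independent.

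Enrichment at starts was modest. The deposited −log10 p-value of a peak, which is averaged over its length, had a median between 1.55 and 1.66 in the class and between 1.45 and 1.60 in the other peaks. The median fold enrichment over input was between 1.83 and 1.88, and only 48 to 73 peaks of the class per list had a listed q-value below 0.05. A −log10 p-value above 2 was reached by 1130, 1161, 961 and 1028 neonatal and 1962 and 1886 adult peaks of the class. These were 9.72% to 12.1% of the class in the neonatal lists and 19.9% and 19.5% in the adult lists, against 5.10% to 6.61% and 12.2% and 12.0% of the other peaks. The highest scores, up to 2871 at Gm10800 in control P5, sat at predicted genes such as Gm10800 and Gm11168, at short repeat-rich loci of the kind known to gather excess reads in input as well. No exclusion list was applied.

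By gene name, the class touched 8848, 8849, 9186, 9283, 9011 and 8863 genes in control P1, Alb-D2KO P1, control P5, Alb-D2KO P5, control adult and Alb-D2KO adult, and 17134 genes in at least 1 list. Of the 51229 annotated autosomal genes, 17.2% had such a peak in control P1, 17.2% in Alb-D2KO P1, 17.9% in control P5, 18.1% in Alb-D2KO P5, 17.5% in control adult and 17.2% in Alb-D2KO adult. Each peak is credited to 1 gene only, so a gene whose start lies inside a wide peak may be named under a neighbour. The start itself was therefore also read directly, whatever gene the peak was credited to. By that reading 10.7%, 11%, 10.6% and 10.8% of genes had their start under a neonatal peak and 8.67% and 8.69% under an adult peak. The peaks of a list covered 18.7% to 20.2% of the autosomes in the neonatal lists and 16.1% and 15.5% in the adult lists, so gene starts were covered less often than autosomal sequence as a whole.

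The genes were spread over all numbers of lists, with 4648, 2814, 2219, 2534, 2543 and 2376 genes in 1, 2, 3, 4, 5 and 6 lists. A TSS-class peak was found in all 6 lists for 2376 genes, 13.9% of the genes listed and 4.62% of annotated genes. It was found in the 4 neonatal lists only for 640 genes, and in both adult lists only for 675, which are 1.25% and 1.3% of annotated genes. In all 3 Alb-D2KO lists only there were 70 genes, and in all 3 control lists only 75 genes, 0.137% and 0.146% of annotated genes. A further 4648 genes were listed once. When the sets were rebuilt from peaks with a −log10 p-value above 2 alone, they held 131, 52, 389, 8 and 10 genes. Of these, 131, 15, 59, 0 and 1 were in the original sets. The near equality of the neonatal and adult sets did not hold at that limit. By covered starts, 1.52% of genes were covered in all 6 lists, 1.13% in neonatal lists only, 0.685% in adult lists only, 0.135% in Alb-D2KO lists only and 0.127% in control lists only.

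**Figure D1:**
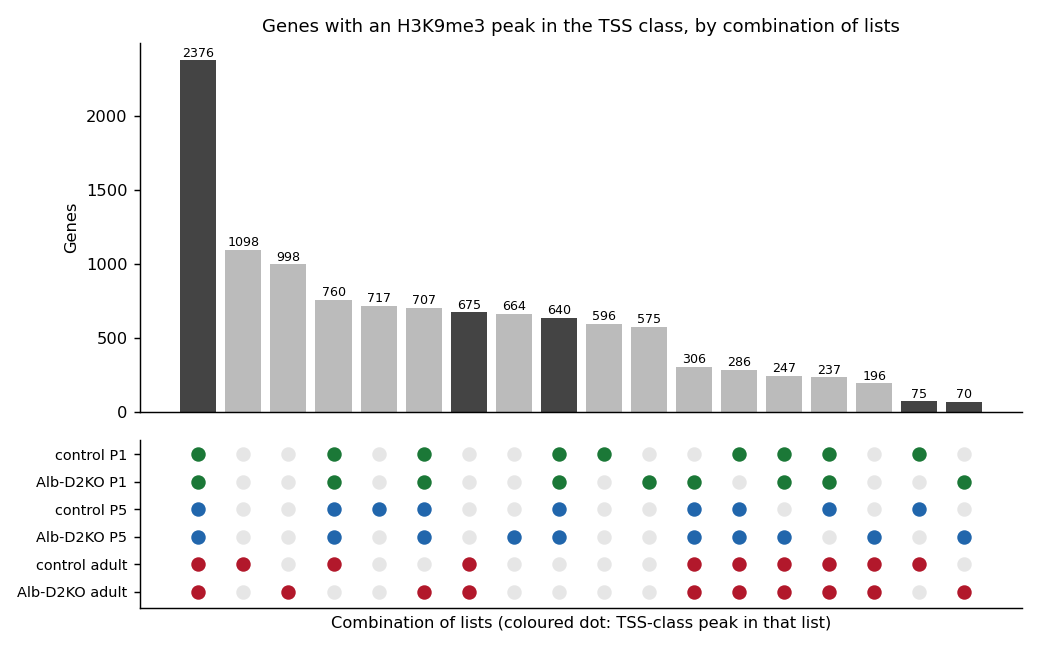
Number of genes with a TSS-class H3K9me3 peak (vertical axis) for the 16 most common combinations of lists and the 2 genotype sets; a coloured dot marks a list with a peak, and dark bars are the 5 sets described in the text. The set found in all 6 lists, with 2376 genes, stands above the single-list sets of 1098 and 998 genes in the adult.

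Peaks of the shared set were the widest. Their median width was 3738 bases and their median −log10 p-value 1.77, compared with 2898 bases and 1.62 in the neonatal set and 1143 bases and 1.66 in the adult set. The Alb-D2KO set had medians of 976 bases and 1.47, the control set 1081 bases and 1.52, and genes in 1 list only 608 bases and 1.42. Genes of the shared set lay close together: 59.6% had another member within 100 kb, against 32.0% in the neonatal set, 20.5% in the adult set, 2.86% in the Alb-D2KO set and 2.67% in the control set. Sets of unequal size differ in this share by their number alone. Chromosome 7 held 393 of the shared genes, 16.6% of them. This chromosome has the most annotated genes, and 8.34% of its 4713 were in the shared set, beside 4.62% of all genes.

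Among the shared genes with high scores were zinc finger genes of one cluster on chromosome 4, with annotated starts from 145670685 (Zfp980) to 147642513 (Zfp979) on GRCm38. Zfp981 had −log10 p-values of 4.19, 5.34, 6.61 and 5.40 in the neonatal lists and 6.71 and 5.64 in the adult lists. Zfp979 had 3.82, 3.63, 3.91 and 4.44, then 4.36 and 4.61, Zfp987 had 3.66, 3.52, 4.12 and 4.20, then 5.82 and 4.70, and Zfp980 had 3.38, 3.84, 4.17 and 3.98, then 5.00 and 4.77. The zinc finger gene Rex2, from the same cluster, had 3.65, 4.20, 4.18 and 4.10, then 5.55 and 5.24. Each of these genes was listed at both genotypes and all ages, under peaks that were 33217 to 213958 bases wide. Zfp993 was the most regular, with a peak of 53797 to 54090 bases in every list and −log10 p-values of 3.62, 3.86, 4.22 and 4.67, then 4.95 and 4.99. Whole-gene starts of Zfp979, Zfp980, Zfp981, Zfp993 and Rex2 were covered in all 6 lists. Members of such a cluster are near copies, so reads may have been shared among them.

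Other shared genes, some with higher neonatal scores, had a different shape. Sfi1, which encodes a centrosomal protein and has many partial copies in the mouse genome, had −log10 p-values of 32.4, 30.7, 23.2 and 24.9 in the neonatal lists and 6.82 and 6.51 in the adult lists, with its start covered in all 6. Ank1, which encodes the membrane protein ankyrin of red cells, had a peak of only 245 to 320 bases with −log10 p-values of 43.9, 65.3, 40.8 and 41.7, then 5.22 and 10.8. This narrow peak lay at an internal transcript, and the gene start of Ank1 was covered in none of the lists. The ribosomal protein pseudogene Rpl19-ps1 had values from 3.55 to 4.47, and the clone-named gene AC147806.2 from 3.32 to 5.32 under peaks of 4246 to 4466 bases.

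Chemosensory receptor genes led the dense clusters of the shared set. Olfactory receptor genes (Olfr), which are expressed 1 per neuron in the nose, had a TSS-class peak for 933, 930, 932 and 978 of 1397 members in the neonatal lists and for 864 and 829 in the adult lists. These were 66.6% to 70.0%, then 61.8% and 59.3%, beside 17.2% to 18.1% of all genes. In all 6 lists there were 412, or 29.5%, beside 4.62% of all genes. Vomeronasal receptor genes (Vmn), which detect pheromones, had one for 238, 240, 254 and 261 of 328, then 225 and 247. These were 72.6% to 79.6%, then 68.6% and 75.3%. In all 6 lists there were 120 vomeronasal genes, or 36.6%. Windows of 1 Mb on chromosome 2, starting at 87, 88 and 89 Mb, held 27, 28 and 37 genes of the shared set, nearly all olfactory receptors. These windows hold 80, 54 and 52 annotated genes. Windows at 129 Mb on chromosome 10 and 38 Mb on chromosome 9 held 29 of 65 and 26 of 68.

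The receptor genes were less regular when the start itself was read. The olfactory receptor starts covered were 649, 669, 635 and 663 in the neonatal lists and 380 and 352 in the adult lists. Of the 1399 annotated starts with these names, 45.4% to 47.9% were covered, then 27.2% and 25.2%. Over all genes it was 10.6% to 11%, then 8.67% and 8.69%. Only 43 olfactory receptor starts were covered in all 6, while 128 were covered in the 4 neonatal lists only and 14 in both adult lists only. The matching shares of all genes were 1.52%, 1.13% and 0.685%. Vomeronasal starts covered were 202, 213, 194 and 194, then 117 and 146, with 31 in all 6 lists and 29 in the 4 neonatal lists only. Of the 329 annotated starts with these names, 59.0% to 64.7% were covered, then 35.6% and 44.4%. Olfr784 on chromosome 10 was covered in every list, with −log10 p-values of 1.95, 2.05, 1.97 and 1.84, then 2.17 and 1.85. Olfr212 had 1.92, 2.04, 2.35 and 1.99, then 2.59 and 2.82, and Olfr138 had 2.22, 2.41, 2.06 and 2.04, then 1.84 and 2.55. Vmn2r117 had 2.74, 3.97, 2.13 and 2.47, then 2.12 and 1.92, with peaks of 3323 to 4938 bases in the neonatal lists and of 681 and 1646 bases in the adult lists. Vmn2r42 and Vmn1r61 were also listed 6 times, between 1.96 and 2.62 and between 1.95 and 2.25. Protocadherin genes of the clustered families, whose alternative starts give neurons surface identity, had peaks for 40, 41, 44 and 45 of 57, then 27 and 37. These were 70.2% to 78.9%, then 47.4% and 64.9%, beside 17.2% to 18.1% of all genes. In all 6 lists there were 18, or 31.6% beside 4.62%. Their starts were covered for 22, 21, 22 and 30, then 18 and 23. Of the 58 annotated starts with these names, 37.9% to 51.7% were covered, then 32.8% and 39.7%. Only 1 protocadherin start was covered in all 6 lists, beside 1.52% of all genes. Among the protocadherin genes Pcdhb6 had values from 1.79 to 2.16 and Pcdhb22 from 1.72 to 2.44, with starts covered in 3 and 5 lists.

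**Figure D2:**
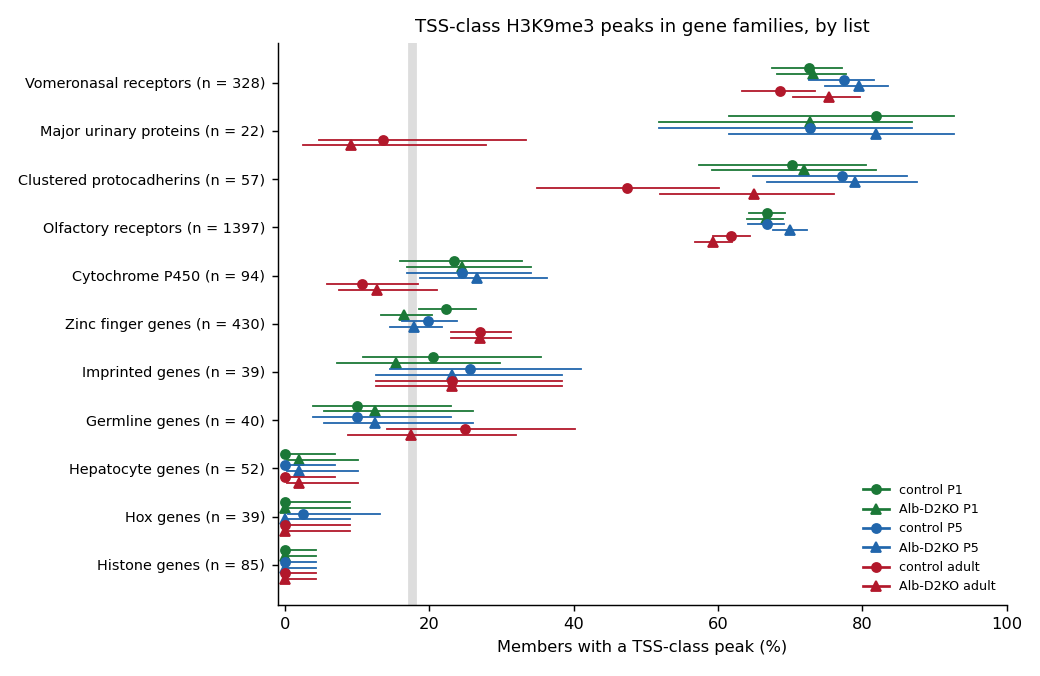
Percent of the members of each gene family with a TSS-class H3K9me3 peak, by list, with 95% Wilson intervals as bars; green is P1, blue P5 and red adult, circles are control and triangles Alb-D2KO, and the grey band is the share of all autosomal genes. Major urinary protein genes sit between 72.7% and 81.8% in the neonatal lists and at 13.6% and 9.09% in the adult lists, while no histone gene had a TSS-class peak.

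Among the genes of the neonatal set were some that the mature liver is known for. Olfactory receptor genes were in this set in greater number, with 60 genes, or 4.29% of that family beside 1.25% of all genes. Major urinary proteins (Mup), pheromone carriers that adult hepatocytes secrete, lie in one cluster on chromosome 4, with annotated starts from 59960710 (Mup4) to 62150863 (Mup21). They had a TSS-class peak for 18, 16, 16 and 18 of 22 genes in the neonatal lists and for 3 and 2 in the adult lists. Of the 22, 11 were in the 4 neonatal lists and neither adult list, a share of 50% beside 1.25% of all genes. Mup1 had −log10 p-values of 1.65, 1.81, 2.13 and 1.69 under peaks of 2220, 2801, 2803 and 4944 bases, with its start covered in all 4 neonatal lists and in neither adult list. Mup9 had 1.86, 1.73, 2.21 and 2.18, and Mup17 had 1.78, 1.70, 1.73 and 1.79. The exception was Mup21, at the end of the cluster, which was in all 6 lists with 1.68, 1.78, 1.93 and 1.82, then 2.86 and 3.27, and whose adult peaks of 47530 and 71897 bases were the widest in the family. By covered starts the family had 12, 15, 14 and 14 genes, then 3 and 1, and 7 were covered in all 4 neonatal lists only. These counts were 54.5% to 68.2%, beside 10.6% to 11% of all genes, then 13.6% and 4.55%, beside 8.67% and 8.69%. Control had 18 and 16 members at P1 and P5, and Alb-D2KO 16 and 18. The highest neonatal score of the family was 2.63, at Mup14 in control P5. Mup genes are near-identical copies, so the gene to which a read belongs is uncertain.

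Cytochrome P450 genes (Cyp), which oxidise steroids, bile acids and drugs, showed the same order in smaller numbers. A TSS-class peak was found for 22, 23, 23 and 25 of 94 genes in the neonatal lists and for 10 and 12 in the adult lists, none in all 6. The shares were 23.4%, 24.5%, 24.5% and 26.6%, then 10.6% and 12.8%, beside 17.2% to 18.1% of all genes, and the interval of each list included that share except in Alb-D2KO P5 (18.7 to 36.3). Of these, 10 were in the 4 neonatal lists only, a share of 10.6% beside 1.25% of all genes, and no Cyp gene was in the adult lists only. Cyp2c67 had −log10 p-values of 1.89, 2.14, 2.02 and 2.23 under peaks of 10371, 30217, 25142 and 34233 bases, and Cyp2c39 had 1.99, 1.56, 1.71 and 1.56. The starts of both were covered in all 4 neonatal lists and in neither adult list. The steroid hydroxylase gene Cyp2d9 had 1.51, 1.75, 2.18 and 2.30 from peaks near but not across its start, and Cyp3a11, a main drug-metabolising enzyme, had 1.50, 1.74, 1.48 and 1.45. Cyp2c38 departed from the pattern with a peak in control adult (2.38), as did Cyp3a16, a gene of the fetal and neonatal liver, with 2.74 in control adult. Cyp2c65 was in 5 lists, both adult ones included. By covered starts the family had 14, 10, 10 and 13 genes, then 2 and 1. These were 14.9%, 10.6%, 10.6% and 13.8%, beside 10.6% to 11% of all genes, then 2.13% and 1.06%, beside 8.67% and 8.69%. By this reading the neonatal shares lay near that of all genes or above it, and the adult shares below it.

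Genes of 2 further hepatic families, chosen after their values were seen, lay in the same order. Sulfotransferases of the Sult2a family, which act on steroids and bile acids, had a TSS-class peak for 7, 7, 8 and 8 of 8 genes in the neonatal lists and for 3 and 2 in the adult lists. These were 87.5% to 100%, then 37.5% and 25%, beside 17.2% to 18.1% of all genes. The Sult2a starts were covered for 7, 5, 7 and 6, then 2 and 0. Of all genes, 10.6% to 11%, then 8.67% and 8.69%, had a covered start. Sult2a3 had −log10 p-values of 1.61, 1.60, 1.85 and 1.92 under peaks of 7803 to 15134 bases and none in the adult lists, while Sult2a1 was in all 6 lists. The glucuronosyltransferases of the Ugt2b family had a peak for 5, 4, 3 and 4 of 7 genes, or 42.9% to 71.4%, then 0 and 0. Their starts were covered for 1, 3, 1 and 3, then 0 and 0. Among them Ugt2b37 had 1.94, 1.94, 2.03 and 2.27. In the 4 neonatal lists only were 3 Sult2a genes, or 37.5%, and 1 Ugt2b gene, or 14.3%, beside 1.25% of all genes. The serpins of cluster A, the family of alpha-1-antitrypsin, had few, with 1, 2, 2 and 3 of 24 in the neonatal lists and 0 and 0 in the adult lists. The neonatal shares were 4.17% to 12.5%, beside 17.2% to 18.1% of all genes. Among the serpins Serpina1b was in 3 neonatal lists (1.29 to 1.74).

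The covered length of the sex chromosomes also differed between the ages. The peaks of chromosome X covered 45.7, 40.5, 54.1 and 53.2 Mb in the neonatal lists and 9.85 and 10.2 Mb in the adult lists. Those of chromosome Y covered 4.49, 12.7, 1.41 and 1.89 Mb, then 6.10 and 5.60 Mb. Many Mup, Cyp and Sult2a genes are expressed at different levels in male and female liver, and the sex of the animals is not given in the labels. The part of sex, of depth and of pooled against single livers in the neonatal and adult sets was not tested.

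**Figure D3:**
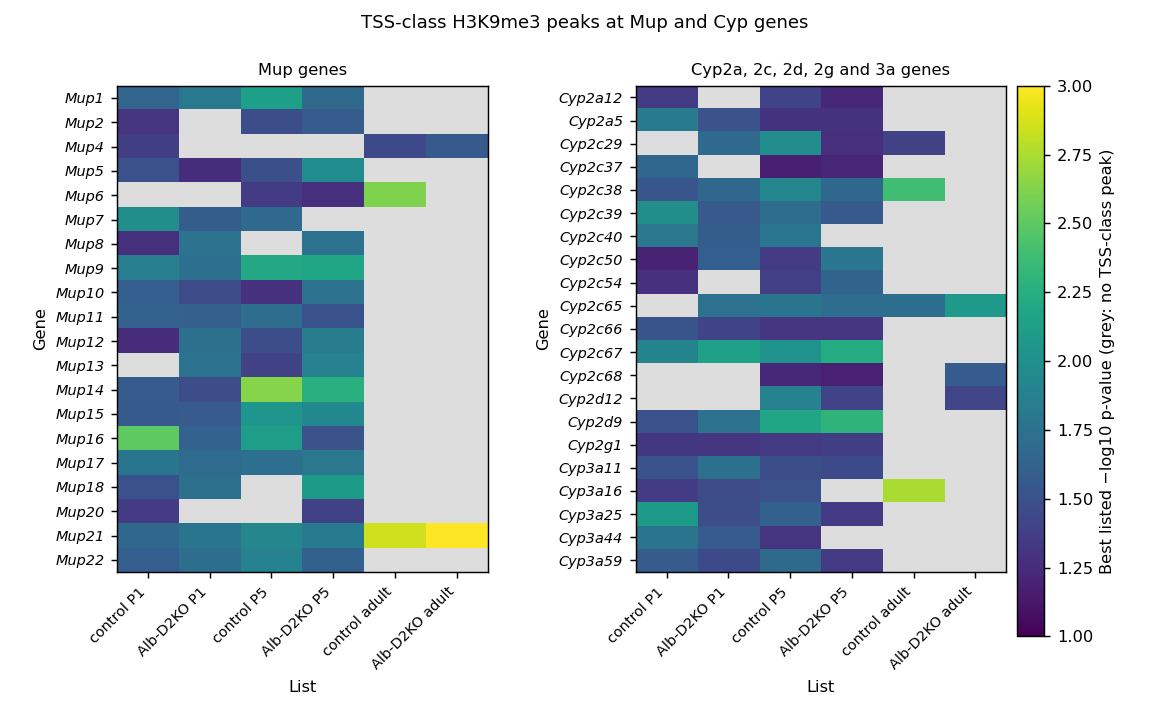
Best listed −log10 p-value of a TSS-class peak (colour, scale from 1 to 3) for each Mup gene with a peak in any list and for the Cyp2a, Cyp2c, Cyp2d, Cyp2g and Cyp3a genes with a peak in 3 or more lists, by list; grey marks no peak. The 4 neonatal columns are mostly coloured and the 2 adult columns mostly grey, with Mup21 coloured in all 6.

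Of the 640 genes of the neonatal set, 614 of the 638 with an annotated start had that start free of any adult peak, or 96.2%, beside 86.9% of all genes. The set was chosen to lack an adult TSS-class peak and all genes were not, so this share was partly fixed by the choice. The start was covered in all 4 neonatal lists for 145 of the 638, and in these lists only for 132. The 3 genes that led the set by score were among the exceptions. Zfp985 had −log10 p-values of 3.35, 3.89, 4.0 and 4.11 under peaks of 137864 to 144072 bases, yet its start was also under an adult peak, credited to its neighbour Gm13161. Vmn2r-ps15, with 3.32, 2.90, 3.85 and 3.45, and AW822073, with 3.61, 2.99, 2.83 and 3.14, were likewise covered in both adult lists by peaks credited to Gm13243 and Duxf3. These genes entered the set through the naming of a peak. Vmn2r70 had 2.01, 2.10, 2.03 and 2.06 under peaks of 22919 to 55882 bases and its start was covered in the neonatal lists only. The clone-named AC087801.3 had 2.22, 2.35, 2.83 and 2.58.

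More zinc finger genes had a peak in the adult lists than in the neonatal lists. Of 430 members, 96, 71, 85 and 77 had a TSS-class peak in the neonatal lists and 116 in each adult list. These were 16.5% to 22.3% of the family in the neonatal lists, beside 17.2% to 18.1% of all genes, a share inside the interval of each neonatal list but control P1 (18.6 to 26.5). In each adult list they were 27% (23.0 to 31.4). In all 6 lists there were 32, or 7.44% beside 4.62% of all genes, in neonatal lists only 6, or 1.40% beside 1.25%, and in adult lists only 15, or 3.49% beside 1.3%. By covered starts the counts were 33, 31, 32 and 33, then 42 and 49. Of the 431 annotated starts with these names, 7.19% to 7.89% were covered in the neonatal lists, beside 10.6% to 11% of all genes. In the adult lists they were 9.74% and 11.4%, beside 8.67% and 8.69%. By starts 1 gene was in neonatal lists only and 10 in adult lists only, beside 1.13% and 0.685% of all genes. Zfp780b led the adult set, with −log10 p-values of 3.26 in control and 3.21 in Alb-D2KO under peaks of 26439 and 28501 bases that covered its start. Zfp763 had 3.05 and 2.69 under peaks of 50963 and 10376 bases, also across its start. In the same 1 Mb window of chromosome 17 as Zfp763, starting at 33 Mb, lay Actl9, an actin-like gene of the testis, with 2.84 and 3.07, together with Zfp81, Morc2b and Olfr55.

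The remaining leaders of the adult set were single genes with wide peaks. Eci2, a peroxisomal enzyme of fatty acid oxidation, had −log10 p-values of 3.01 and 2.57 under peaks of 16872 and 20839 bases. Smyd3, a lysine methyltransferase gene, had 2.51 and 2.45 under peaks of 46049 and 49308 bases, and Zcwpw2, whose product carries a histone-reading domain, had 2.79 and 2.86. The gene starts of Actl9, Eci2, Smyd3 and Zcwpw2 were covered in no list. The control adult peak of Actl9 ended 47 bases before its start, and those of Eci2, Smyd3 and Zcwpw2 lay at internal transcripts. Of the 675 genes of the set, 622 of 668 with an annotated start had it free of neonatal peaks, or 93.1%, beside 81.1% of all genes. The set was chosen to lack a neonatal TSS-class peak, so this share too was partly fixed by the choice. The start was covered in both adult lists for 136, and in these only for 117. The 1 Mb window with most genes of the set, on chromosome 7 from 59 Mb, held 8 of its 224 annotated genes, among them Snord116l3. Windows with 6 genes each lay on chromosome 12 from 109 Mb (of 111 genes, among them Mirg, Mir369 and Mir654), on chromosome 17 from 33 Mb (of 52) and on chromosome 7 from 15 Mb (of 59, among them Obox4-ps13). The windows of Snord116l3 and Mirg are imprinted regions with tandem copies of small RNA genes, and they hold many genes of any kind.

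In the genotype sets peaks were weak and narrow, and the sets were small. The Alb-D2KO set was led by Vmn1r94, with −log10 p-values of 2.12, 1.65 and 2.04 in the P1, P5 and adult lists, but its start was also covered in control P1 and control P5 by peaks credited to Vmn1r95 and Gm44598. Ighv6-5, an antibody variable segment, had 1.83, 1.53 and 1.61, Nlrp4g, an oocyte gene, 1.53, 1.61 and 1.58, and Obox4-ps32, a pseudogene, 1.53, 1.48 and 1.48. The start of Obox4-ps32 was also covered in control P5. The control set was led by Olfr1485-ps1, with 1.70, 1.96 and 1.64, whose start was also covered in Alb-D2KO P1 and Alb-D2KO P5 by peaks credited to Olfr1484. Olfr668 had 1.80, 1.54 and 1.71, and its start was covered in the 3 control lists alone. Lipo1, a lipase gene, had 1.48, 1.61 and 1.81, and Olfr1508 had 1.47, 1.89 and 1.44. No Alb-D2KO gene and 1 control gene was above 2 in its weakest list. Of the 70 and 75 genes, 61 and 61 had a start free of peaks in the other genotype. These were 87.1% and 81.3%, beside 82.2% and 82.0% of all genes. Both sets were chosen to lack a TSS-class peak in the other genotype, so these shares were partly fixed by the choice. The start was covered in all 3 lists of the genotype for 6 and 11 genes, and in these lists only for 3 and 8.

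The 2 genotypes were nearer in size than in membership. At P1, 6273 genes had a TSS-class peak in both genotypes, 70.9% of the genes of either list, with 2575 in control only and 2576 in Alb-D2KO only. At P5, 6490 were shared, 70.7% of control and 69.9% of Alb-D2KO genes, with 2696 and 2793 in 1 genotype. In the adult, 5537 were shared, 61.4% and 62.5%, with 3474 and 3326 in 1 genotype. Within a genotype the genes shared between P1 and P5 were 71.2% of control P1 and 72.1% of Alb-D2KO P1, so another age at the same genotype gave about the same share as the other genotype at the same age. Between a neonatal and an adult list the share ran from 57.2% to 61.2%.

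Overlap of the peaks themselves followed their width. Of the TSS-class peaks, 74.3%, 75.5%, 75.3% and 74.4% of the neonatal and 63.1% and 64.4% of the adult lists overlapped a peak of the other genotype at the same age by at least 1 base. For the peaks of all other sections the shares were 64.1%, 64.6%, 65.5%, 64.3%, 54.1% and 55.7%. Within a width class the peaks at starts were not ahead below 2000 bases. In control P1, peaks under 500 bases at starts overlapped in 31.4% (95% interval 29.0 to 33.8), against 35.1% of the peaks of all other sections of that width. Peaks of 500 to 1000 bases overlapped in 46.5% against 51.3%, those of 1000 to 2000 bases in 73.4% against 75.9%, and those of 2000 to 5000 bases in 95.7% in both. In the other 5 lists the share at starts was likewise below that of the other sections in each of the 3 classes under 2000 bases. Every TSS-class peak of 5000 bases or more in control P1 overlapped an Alb-D2KO peak.

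The sequence at the start, which the choice of peaks did not use, differed between the sets. CpG content was measured as the ratio of observed to expected CpG in the 300-base window, and starts above 0.6 were called CpG-rich and under 0.4 CpG-poor. Of 20807 protein-coding genes, 45.5% were CpG-rich. Among those of the shared set the median ratio was 0.121 and 7.05% were CpG-rich (5.53 to 8.93), and in the neonatal set they were 0.120 and 9.20% (5.66 to 14.6). In the adult set the median was 0.374 and 32.1% were CpG-rich (25.8 to 39.1), and in genes with no TSS-class peak they were 0.634 and 52.9% (52.1 to 53.7). The families contribute to this, since olfactory receptor starts are nearly all CpG-poor. Without the Olfr, Vmn, zinc finger, Mup and Cyp genes the CpG-rich shares were 15.5% in the shared set (12.1 to 19.7) and 13.8% in the neonatal set (8.07 to 22.6). They were 33.1% in the adult set (26.3 to 40.7) and 53.4% in genes with no peak. TSS-class peaks often did not cross the start, which was covered in both adult lists for 136 of 668 adult-set genes. Of the 57 coding genes with the start covered in both adult lists only, 10.5% were CpG-rich (4.91 to 21.1), with a median of 0.189. With the start covered in all 6 lists these were 4.95% and 0.140, and in the neonatal lists only 0.498% and 0.109.

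**Figure D4:**
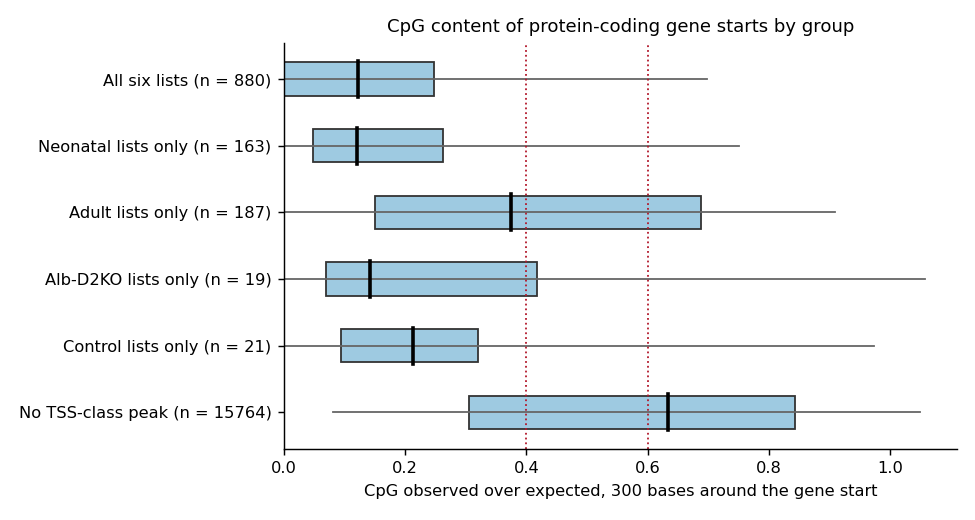
Ratio of observed to expected CpG in the 300 bases around the start of protein-coding genes, by set; the thick line is the median, the box spans the quartiles, the whiskers run from the 5th to the 95th percentile, and dotted lines mark 0.4 and 0.6. The shared and neonatal sets have medians of 0.121 and 0.120, the adult set 0.374 and genes with no TSS-class peak 0.634. Sets follow the TSS class, so the peak need not cross the start. For coding starts covered in both adult lists only the median was 0.189.

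Coverage of the start itself differed more than the class did. CpG-rich coding starts were covered in 0.254%, 0.264%, 0.296% and 0.285% of 9462 genes in the neonatal lists and in 0.370% and 0.359% in the adult lists. CpG-poor coding starts were covered in 15.4%, 15.8%, 14.9% and 15.5% of 8471 genes, then 10.1% and 10.4%. The intervals of the 2 kinds of start do not overlap in any list. In control P1, 10 kb upstream of CpG-rich starts the share was 2.90%, more than at the start, and 10 kb downstream it was 1.88%. At CpG-poor starts of control P1 it was 18.7% at 10 kb upstream, nearer to the value at the start. In control P1, 389 CpG-rich coding genes had a TSS-class peak, which may lie at an internal transcript, and 24 had the gene start under a peak of any class.

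**Figure D5:**
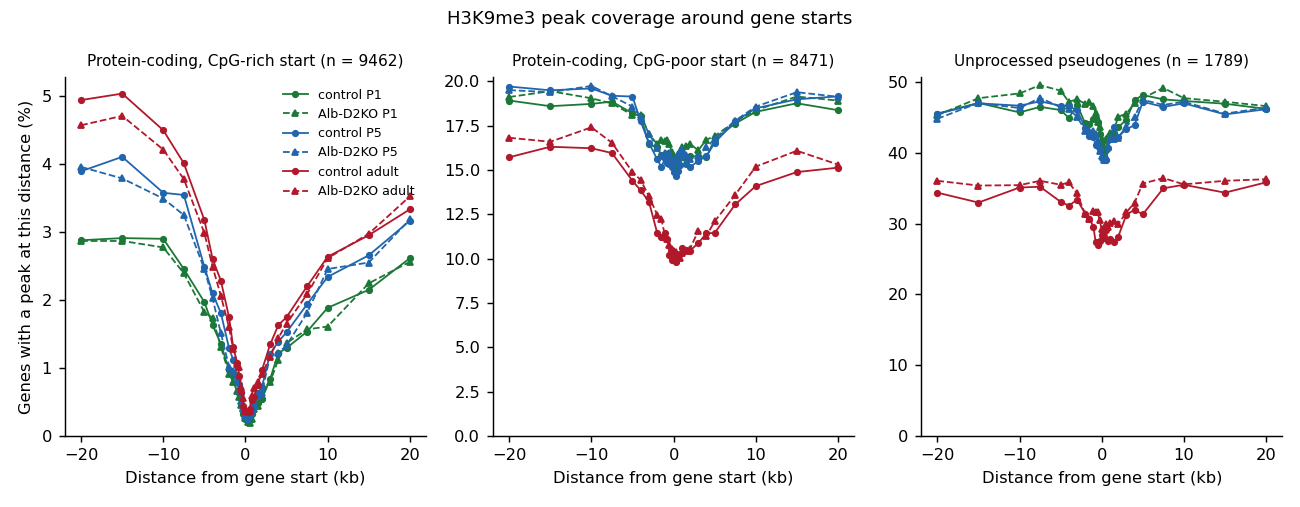
Percent of genes with an H3K9me3 peak at each distance from the gene start (horizontal axis in kb, negative is upstream) for CpG-rich coding genes, CpG-poor coding genes and unprocessed pseudogenes, each on its own vertical scale; lines are the 6 lists. Coverage falls at the start in all panels, in control P1 from 2.90% at 10 kb upstream to 0.254% in CpG-rich genes and from 18.7% to 15.4% in CpG-poor genes.

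By gene type, pseudogenes had a TSS-class peak most often. A TSS-class peak in any list was found for 24.2% of protein-coding genes, 23.6% of long noncoding RNA genes, 52.6% of processed pseudogenes and 76.2% of unprocessed pseudogenes, which arise by gene duplication and lie in the receptor clusters among other places. In all 6 lists the shares were 4.23%, 1.94%, 6.47% and 16.1%. The start was covered in 41.5%, 42.0%, 39.3% and 39.6% of unprocessed pseudogenes in the neonatal lists and in 28.3% and 29.2% in the adult lists. For processed pseudogenes the start was covered in 17.3% to 18.1%, then 15.6% and 15.6%. That is near the share of the autosomes under peaks, 18.7% to 20.2%, then 16.1% and 15.5%. Protein-coding starts were covered in 6.51% to 6.81%, then 4.56% and 4.69%.

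A list of 52 hepatocyte genes, which left out the Mup, Sult2a and Ugt2b families described above, had few peaks. Of the 52, 0, 1, 0 and 1 had a TSS-class peak in the neonatal lists and 0 and 1 in the adult lists. The share was at most 1.92%, beside 17.2% to 18.1% of all genes. The genes with a peak were Serpina1a (1.26 in Alb-D2KO P1), the tryptophan-degrading enzyme gene Tdo2 (1.37 in Alb-D2KO P5) and the urea cycle gene Cps1 (1.43 in Alb-D2KO adult), all weak, with no start covered. Alb and Dio2 itself had no TSS-class peak in any list. None of 85 histone genes had one, of 39 Hox genes Hoxa5 had one in control P5 only (1.66), and of 18 housekeeping genes Gusb had one in control P5 only (1.40). Peak lists hold no expression, so the labelled tissue could not be checked from its markers. None of the markers of hepatocytes, blood, endothelium, Kupffer cells, bile duct or stellate cells had its gene start covered, and TSS-class peaks were found only for Cps1, Ptprc, Reln and Dcn, but genes of other organs were mostly free of peaks as well.

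Of 28 genes of thyroid hormone action, 1, 3, 5 and 3 had a peak in the neonatal lists and 1 and 1 in the adult lists, or 3.57% to 17.9%, beside 17.2% to 18.1% of all genes. The organic anion transporter gene Slco1a4 was in all 6 lists, with −log10 p-values of 1.93, 1.44, 2.00 and 2.31, then 1.69 and 1.47. The gene start of Slco1a4 was covered in only 2 lists, by peaks of 1.22 and 1.28. Its neighbours on chromosome 6, Slco1a1, with 1.85, 1.34 and 1.23, and the thyroxine transporter gene Slco1c1, with 1.28, 1.28 and 1.44, were in Alb-D2KO P1, control P5 and Alb-D2KO P5. The start of Slco1a1 was covered in 3 lists and that of Slco1c1 in none. The corepressor gene Ncor1 was in control P5 only (1.23), and so was the coactivator gene Ncoa1. Genes that write, read or erase H3K9me3 had 2, 0, 2 and 3 of 25, then 2 and 2. These were 0% to 12%, then 8% and 8%, below the 17.2% to 18.1% of all genes. In this list Atf7ip and Atf7ip2, partners of SETDB1, had adult peaks of 2.21 and 2.37, and of 2.08 and 2.02. They also had neonatal peaks between 1.34 and 1.72. The start of Atf7ip was covered in 1 list and that of Atf7ip2 in none. Smarcad1, a remodelling factor, was in control P1 (1.26) and Alb-D2KO P5 (1.44).

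Germline genes, which are kept silent in somatic tissue, had a peak for 4, 5, 4 and 5 of 40 members in the neonatal lists and for 10 and 7 in the adult lists. Beside 17.2% to 18.1% of all genes, these shares ran from 10% to 12.5%, then 25% and 17.5%, with intervals that include it. Sycp1, of the meiotic synaptonemal complex, was in all 6 lists, with 2.52, 2.60, 2.22 and 1.65, then 2.25 and 1.97, and so were Stk31 (1.10 to 1.48) and Nlrp5 (1.36 to 2.47). The Piwi-pathway genes Tdrd9, with 2.41 and 2.65 under peaks of 14656 and 15443 bases, and Piwil1, with 1.36 and 1.42, were in the adult lists only. The gene starts of Sycp1, Stk31, Tdrd9 and Piwil1 were covered in no list, and that of Nlrp5 in 4. Of the 40 germline starts, 0, 1, 1 and 2 were covered in the neonatal lists and 0 and 1 in the adult lists. Imprinted genes had a peak for 8, 6, 10 and 9 of 39 members, then 9 and 9, or 15.4% to 25.6%, near the share of all genes, and none was in all 6 lists. Snrpn was in 5 of them, with 1.70, 2.03, 1.68 and 1.18, then 1.78 in control adult, as were Ndn (1.39 to 1.68) and Peg3 (1.22 to 1.60). Mirg was in the adult lists only (2.28 and 1.54).

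Genes of other cells and ages stayed near or under the share of all genes, 17.2% to 18.1% per list. Fetal liver genes had 3, 3, 4 and 2 of 26, then 3 and 2, or 7.69% to 15.4%, then 11.5% and 7.69%. Genes of red cells and blood had 2, 4, 2 and 3 of 37, then 5 and 5, or 5.41% to 10.8%, then 13.5% and 13.5%. Of these, Ank1 was in all 6 lists and Ptprc, the leukocyte antigen CD45, in the adult lists only (1.34 and 1.32). Nonparenchymal liver genes had 2, 4, 2 and 3 of 21, then 3 and 2, with the collagen gene Col3a1 in all 6 lists (1.29 to 1.92). Genes of other organs had 2, 2, 2 and 2 of 30, then 1 and 2, or 6.67%, then 3.33% and 6.67%. Among them were the skin gene Flg in 4 lists and the insulin gene Ins2 in Alb-D2KO adult (1.42).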

How the data were processed

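H3K9me3 and input libraries of control and Alb-D2KO liver were sequenced by the authors, aligned to mm10 with BWA and called with MACS2 in broad mode over input, in Partek, per the study's methods and the submitters' notes. Each deposited list gives for a peak its width, the −log10 of its p-value and, as a second score, that of its q-value, both averaged over the peak, and a linear ratio, the fold enrichment over input. The authors also annotated each peak with a section and 1 gene. Whether repeated sequencing runs were merged is not given in the sources used here. Positions and transcript starts were checked against the reference: 19653 of 19773 listed transcripts were found, 99.9% with the same start.

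Genes were counted by name over autosomal TSS-class peaks, at any listed score (the lowest was 1.00). Gene starts came from the GENCODE M21 annotation of GRCm38. Named genes were ranked by the score of their weakest list, leaving out predicted names, with a fixed number per set, and up to 4 genes of each list. A gene named by this rule is not reported here. Other genes named with values were chosen after their values were seen. The sets, gene lists and tests were chosen with earlier results of these data known. Overlap and pattern code was tested on simulated data. The 3 lists called against the control library and chromosomes X and Y, other than their covered length, were not used. Shares have 95% Wilson intervals. Alternatives were stricter scores, narrower peaks, covered starts, established names and larger overlap. Python 3.11.15, pandas 2.3.3, NumPy 2.4.6, SciPy 1.17.1 and matplotlib 3.10.9 were used.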

Additional observations from a re-analysis of the deposited data

Results flagged for a closer look

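The genotype difference in the number of TSS-class peaks did not keep one sign over the ages. Alb-D2KO minus control was -34, 141 and -172 peaks in the P1, P5 and adult lists. In genes the difference was 1, 97 and -148. With 1 list per group the change of sign was not tested, and depth and animal cannot be told apart from genotype.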

How the results depend on the processing

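No paired analysis was possible because each genotype and age had 1 library, and for the same reason no library could be left out within a group. With a −log10 p-value above 2, the sets of all 6 lists, neonatal, adult, Alb-D2KO and control held 131, 52, 389, 8 and 10 genes. Of these, 131, 15, 59, 0 and 1 were in the original sets. Without predicted names the sets held 1050, 253, 232, 26 and 24 genes. When any peak over the annotated start counted, the sets held 780, 577, 351, 69 and 65 genes, of which 414, 126, 115, 3 and 7 were in the original sets. A window from 999 bases before to 99 after the start, chosen after seeing the data, gave 2752, 729, 606, 58 and 56, with 1844, 532, 477, 50 and 46 shared.

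In the list order of the report, the TSS share became 6.70%, 7.42%, 7.59%, 7.51%, 5.72% and 5.67% above 2, and 3.72%, 3.89%, 3.95%, 3.98%, 3.48% and 3.47% for peaks narrower than 20 kb. With an average p below 0.05 it was 4.15%, 4.44%, 4.57% and 4.54% in the neonatal lists. Overlap with the other genotype became 54.4%, 53.7%, 53.6%, 52.7%, 54.1% and 56.4% above 2, and 70.1%, 71.8%, 71.3%, 70.4%, 60.8% and 62.2% under 20 kb. It was 56.9%, 56.7%, 56.9%, 55.3%, 40.9% and 41.8% when at least 50% of a peak had to be covered, and 76.7%, 77.6%, 77.6% and 76.1% in the neonatal lists with an average p below 0.05. At 50% coverage, control overlaps between ages were 34.0% (P1 in adult), 34.8% (P5 in adult), 43.4% (adult in P1) and 45.1% (adult in P5), and those of Alb-D2KO 34.3%, 35.0%, 45.5% and 47.7%. The causes of these shifts, beyond fewer or smaller peaks entering, were not tested. Depth is unknown, so a missing peak may be one below detection.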

Other observations

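Other clusters of tandem gene copies, chosen after their positions were seen, appeared among the genes with a TSS-class peak in the 4 neonatal lists only. A 1 Mb window of chromosome 12 from 114 Mb held 12 such genes of its 93 annotated genes, mostly antibody heavy chain variable segments (Ighv). A window of chromosome 6 from 68 Mb held 11 of 66, mostly light chain segments (Igkv). The window of chromosome 8 from 21 Mb held 10 of 76, among them the antimicrobial defensins Defa20, Defa25, Defa32 and Defa37. The window of chromosome 6 from 132 Mb held 9 of 49, among them the bitter taste receptors Tas2r109, Tas2r113, Tas2r115, Tas2r120 and Tas2r123. Over all annotated genes the share in this set was 1.25%. The adult set, 1.3% of all genes, had 5 of 103 genes on chromosome 14 from 53 Mb, T cell receptor variable segments (Trav). It had 6 of 59 on chromosome 7 from 15 Mb, pseudogenes of the Obox4, Ranbp2 and Mrip families. These windows were picked as those with most genes of a set.

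Few TSS-class peaks reached more than 1 gene. Between 2.72% and 4.66% of them per list spanned more than 1 annotated gene start, with at most 16, and 48.9% to 59.0% spanned none.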
